A study of Mus musculus with 4 samples.

Results

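The cells described here are rare mesenchymal cells of mouse liver, picked from 4 single-cell RNA-seq libraries by marker counts in the raw data. A cell was taken if it held at least 4 UMIs (unique molecular identifiers, 1 per captured molecule) over Dcn, Clec3b, Col1a1 and Col3a1 with at least 2 of these genes seen. It also had to hold at most 1 UMI over Lrat, Reln and Colec11, fewer than 3 over these genes with Rgs5 and Ecm1, and none of Ptprc, Stab2, Cd79a, Cd3e or Epcam. This left 137 of 82905 cells (0.165%), called the gated cells below.

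The libraries came from male C57BL/6J mice that were 8 weeks old at the start. The MASH mice followed the FAT-MASH regimen, used to model fatty liver inflammation with scarring: they ate a Western diet, drank sugar water and each week received a low dose of the liver toxin carbon tetrachloride into the peritoneum. They were set against mice on regular chow, with 1 library for each diet at 12 and at 24 weeks. Livers were kept on ice overnight and digested with collagenase and DNase, and non-parenchymal cells were collected from a Percoll gradient, and shares below are of the cells recovered, which need not be those of the tissue. The labels do not say how many mice a library held. With 1 library per group no test between groups is possible, and every interval below covers counting error only.

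Portal fibroblasts are the matrix-producing cells around the portal veins and bile ducts, and they are known for decorin, fibulins, microfibril proteins and gelsolin. Hepatic stellate cells, which store vitamin A in the space beside the sinusoids, are the other main source of liver matrix. The liver surface is covered by a capsule with a sheet of mesothelial cells, which share decorin and collagens with fibroblasts but also make keratins, mesothelin and the uroplakin Upk3b. Mesenchymal cells of several organs make complement proteins, acute-phase proteins and chemokines beside matrix.

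By library, 65 gated cells came from MASH and 38 from chow at 12 weeks, and 25 from MASH and 9 from chow at 24 weeks. Together they carried 275740 and 106917 UMIs at 12 weeks and 175823 and 28770 at 24 weeks, in the same order. The median gated cell had 3757 UMIs in 12-week MASH and 2376.5 in 12-week chow, and 7144 in 24-week MASH and 3116 in 24-week chow. The gated cells of 24-week MASH were thus the deepest. Scrublet, a doublet caller, marked 3 of the 65 MASH and 2 of the 38 chow cells at 12 weeks, and 3 of the 25 MASH and 8 of the 9 chow cells at 24 weeks. Each 24-week value for chow therefore rests on 9 cells, of which 1 was not marked. Among the 3 libraries with barcode names, which leaves out 12-week MASH, no 2 gated cells shared a barcode, although 730, 487 and 732 barcodes of all cells recurred between pairs of them and 1 of these belonged to a gated cell of 24-week MASH. A single gated cell, in 12-week MASH, lay at exactly 4 marker UMIs, and 2 cells that met every other condition lay at 3.

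The marker genes themselves, which chose the cells, are given as a description only. Dcn, a small proteoglycan that binds collagen fibrils, had 16356 CPM (counts per 1e6 UMIs, here of all gated cells of a library summed) in 12-week MASH and 18603 in 12-week chow, and 6734 in 24-week MASH and 5805 in 24-week chow. Clec3b, the plasminogen-binding protein tetranectin, had 2546 CPM in MASH and 5341 in chow at 12 weeks, and 79.6 in MASH and 1703 in chow at 24 weeks. Tetranectin was thus low in the gated cells of 24-week MASH, of which 7 of 25 held at least 1 Clec3b UMI.

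Markers outside the rule did not bear out portal fibroblasts as the main cell among them. Mesothelial markers (at least 2 UMIs over Msln, Upk3b, Upk1b, Lrrn4 and Gpm6a) were found in 85 of the 137 cells (62.0%). The shares were 67.7% (95% exact binomial interval 54.9 to 78.8) in MASH and 42.1% (26.3 to 59.2) in chow at 12 weeks, and 80% (59.3 to 93.2) in MASH and 55.6% (21.2 to 86.3) in chow at 24 weeks. Portal fibroblast markers (at least 2 UMIs over Thy1, Mfap4, Fbln2, Eln, Dpt and Pi16) were found in 74 cells. Their shares were 49.2% in MASH and 71.1% in chow at 12 weeks, and 40% in MASH and 55.6% in chow at 24 weeks. Only in 12-week chow was this above the mesothelial share. Of the 74 cells, 35 carried both kinds. Another 50 cells carried mesothelial markers alone, 39 portal fibroblast markers alone and 13 neither. With gated cells thinned to 1000 UMIs, which left out 12 of the 137 as too shallow, mesothelial markers were seen in 53.3% of MASH and 37.5% of chow cells at 12 weeks and in 75% of MASH and 55.6% of chow cells at 24 weeks. The thinned shares for portal fibroblast markers were 25% in MASH and 65.6% in chow at 12 weeks, and 4.17% in MASH and 33.3% in chow at 24 weeks. T cells, taken as cells with at least 2 Cd3e UMIs and with doublets kept, are given for comparison. Free RNA and doublets cannot be told apart in their shares. Mesothelial markers reached 2 UMIs in 1.43% of T cells in MASH and 0.374% in chow at 12 weeks, and in 0.711% in MASH and 0.224% in chow at 24 weeks, at median depths of 5453, 3630.5, 4963 and 4131 UMIs in the same order. For the portal fibroblast markers without Thy1, which T cells make, the shares of T cells were 1.89% in MASH and 0.506% in chow at 12 weeks, and 1.93% in MASH and 0.513% in chow at 24 weeks.

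Upk3b, a uroplakin of the mesothelial surface (ENSMUSG00000042985, protein-coding, plus strand of chromosome 5, 136038496 to 136046487, GRCm38), was seen in 83 gated cells. At 12 weeks it had 1428 CPM in MASH and 2097 CPM in chow cells with mesothelial markers, against 0 and 18.4 CPM in MASH and chow cells without them. Upk3b is among the markers that define the split, so this is a description. The fibroblast genes Mfap4, Dpt and Pi16 had no UMI in any of the 85 cells with mesothelial markers. In the other gated cells at 12 weeks, Dpt, a matrix protein that binds decorin, had 1493 CPM in MASH and 1707 CPM in chow. Markers of stellate cells outside the rule reached 2 UMIs in 9 of the 137 cells and those of smooth muscle in 1. The gated cells are therefore a mixture, and comparisons are given below for all of them and, where counts allow, apart for the cells with and without mesothelial markers, a split added after the data had been seen.

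**Figure D1:**
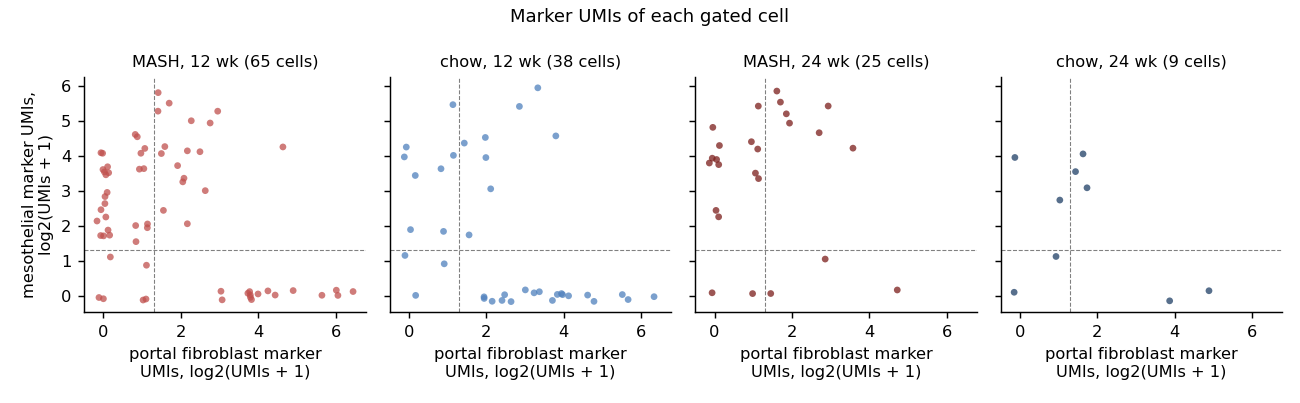
UMIs over 6 portal fibroblast markers (x axis) and over 5 mesothelial markers (y axis) in each gated cell, both as log2(UMIs + 1) with a small random shift, 1 panel per library. Dashed lines mark the 2-UMI limits. Cells with many portal fibroblast marker UMIs sit mostly at 0 on the y axis, and 24-week MASH has 3 cells in that lower right corner against 20 above the horizontal line.

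The stellate exclusion of the rule also shaped which cells were kept. In all, 289 cells were left out of the gated set as stellate cells, with at least 3 UMIs over Lrat, Reln, Colec11, Rgs5 and Ecm1. Of these, 203 had Ecm1, a secreted matrix protein, as the only one of the genes seen, and Lrat, which makes the stored retinyl esters of stellate cells, was seen in 4. Mesothelial markers reached 2 UMIs in 157 of the 289 cells and portal fibroblast markers in 225, while stellate markers outside the rule did so in 73. The stellate genes outside the rule summed to 1342 CPM in gated cells and 933.8 CPM in excluded cells of 12-week MASH, and to 1169 and 1055 CPM in 12-week chow. At 24 weeks the sums were 1285 and 1174 CPM in MASH and 1495 and 913.4 CPM in chow, so in each library the excluded cells lay below the gated ones for these genes. Their median depths were 10231 UMIs in MASH and 3467 in chow at 12 weeks, and 12176 in MASH and 5099.5 in chow at 24 weeks, deeper than the gated cells of each library.

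The gated cells took 0.377% (0.291 to 0.481) of the cells in MASH and 0.206% (0.146 to 0.283) in chow at 12 weeks. At 24 weeks the shares were 0.125% (0.0811 to 0.185) in MASH and 0.0330% (0.0151 to 0.0626) in chow. MASH was above chow at both weeks, with intervals that did not overlap. The gate depends on depth, however, and the median cell passing the filter had 3304 UMIs in MASH and 2096 in chow at 12 weeks, and 3464 in MASH and 2356 in chow at 24 weeks. With each cell thinned to 1000 UMIs before the gate, 1.54% of MASH and 0.419% of chow cells were taken at 12 weeks, and 0.285% of MASH and 0.106% of chow cells at 24 weeks. This left out 1616 MASH and 2913 chow cells at 12 weeks and 1020 MASH and 2758 chow cells at 24 weeks as too shallow. The upper limits of the rule are raw counts too, so thinning also lets more cells under them.

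Counted over all cells, without the gate, mesothelial markers were found in 2.41% (2.19 to 2.65) of MASH and 0.694% (0.580 to 0.825) of chow cells at 12 weeks, and in 1.69% (1.51 to 1.88) of MASH and 0.337% (0.272 to 0.413) of chow cells at 24 weeks. These were 415 and 128 cells at 12 weeks and 337 and 92 cells at 24 weeks, MASH before chow. Without cells marked as doublets, 330 MASH and 103 chow cells remained at 12 weeks and 282 MASH and 36 chow cells at 24 weeks. Of the 972 cells in all, 887 were not gated cells, 646 because a gene that had to be at 0 was seen. The share in T cells differed between the diets in the same direction, as given above, and its part in this difference was not tested.

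**Figure D2:**
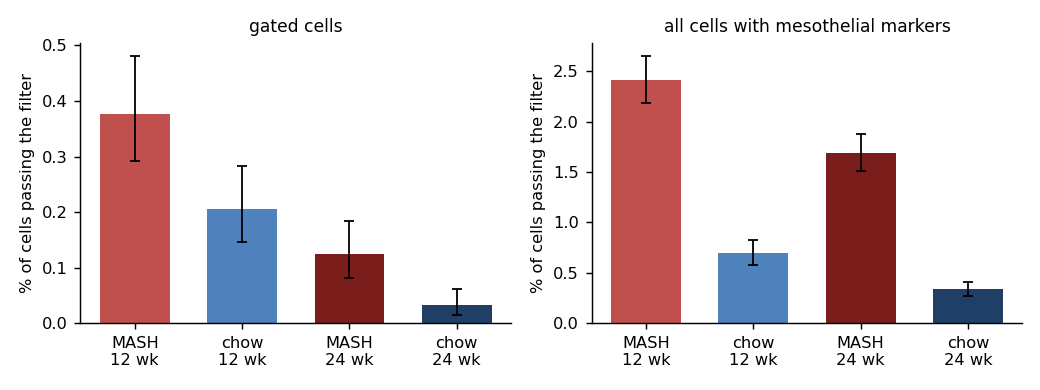
Share of cells passing the filter in each library, as bars with exact binomial 95% intervals, for the gated cells (left) and for all cells with at least 2 UMIs over 5 mesothelial markers (right). In both panels MASH stands above chow at each week, at 0.377% against 0.206% and 2.41% against 0.694% at 12 weeks.

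The comparison of diets at 12 weeks asked which genes of the gated cells differed between MASH and chow. Complement genes, the acute-phase gene Saa3 and the membrane protein genes Tmem176a and Tmem176b stood higher in MASH, and fibroblast genes such as Gsn and Igfbp6 stood lower. Of 1764 genes with at least 10 expected UMIs in each library, 115 were higher by 2-fold or more (6.52%) and 90 lower by as much (5.1%), the limits used throughout, and the median log2 ratio was −0.02. Within cells with mesothelial markers 754 genes could be compared, with 62 higher (8.22%) and 41 lower (5.44%), and within the other gated cells 805, with 69 higher (8.57%) and 60 lower (7.45%). Values in parentheses after a ratio are its exact binomial 95% interval from the UMI counts. Of the 1764, 369 could also be compared at 24 weeks, and among them 26 were higher and 13 lower at 12 weeks and 58 higher and 24 lower at 24 weeks. Past 2-fold in the same direction at both weeks were 10 higher genes (Prg4, Cxcl13, Tmem176b, Tmem176a, Saa3, Ucp2, Alcam, C4b, Cfb and C3) and 4 lower ones (Gsn, Cst3, Rarres2 and Fabp1). The 24-week comparison covered 374 genes, of which 63 were higher (16.8%) and 24 lower (6.42%), with a median log2 ratio of 0.20. Ratios at 24 weeks are to be read against that shift. The excess of higher genes depends on the limit of 10 expected UMIs, which uses the rate pooled over MASH and chow. With no limit on low counts 474 of 5554 genes were higher and 824 lower at 24 weeks.

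C3 is the central protein of the cascade, whose cleavage marks targets and releases an attractant for leukocytes. C3 (ENSMUSG00000024164, protein-coding, minus strand of chromosome 17, 57203970 to 57228136, GRCm38) had 6448 CPM in MASH and 2703 CPM in chow at 12 weeks, and 16062 CPM in MASH and 3615 CPM in chow at 24 weeks. The level in MASH was 2.39 times that in chow (2.11 to 2.71) at the earlier time. At the later one it was 4.44 times that in chow (3.65 to 5.46), or 2.98 times among single-hashtag cells and 32.9 times without the cells called doublets, on 1 chow cell. In single cells, the lowest, median and highest C3 levels were 0, 6127 and 17641 CPM in MASH and 0, 2081 and 10360 CPM in chow at 12 weeks, and 885, 12658 and 30053 CPM in MASH and 486, 3680 and 7702 CPM in chow at 24 weeks. The median MASH cell was higher at both weeks, and the ranges of MASH and chow cells overlapped. T cells had 180 CPM of C3 in MASH and 10.5 in chow at 12 weeks, and 178 in MASH and 23.9 in chow at 24 weeks, far below the gated cells. Within cells with mesothelial markers C3 was 7976 CPM in MASH and 3432 CPM in chow at 12 weeks, a ratio of 2.32 (1.99 to 2.73). In the other gated cells it was 2777 CPM in MASH and 2001 CPM in chow (1.39, 1.10 to 1.76), below 2-fold. Among cells with 1 hashtag, an antibody tag whose meaning the labels do not give, hashtags 4, 5 and 6 of 12-week MASH had 7690, 8186 and 4217 CPM of C3 and hashtags 1, 2 and 3 of 12-week chow had 0, 3813 and 1515 CPM, on 1 to 20 cells each.

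Factor B, encoded by Cfb (chromosome 17, 34856374 to 34862518), joins C3b to form the enzyme of the alternative pathway. It had 511 CPM in MASH and 206 CPM in chow at 12 weeks (2.49, 1.58 to 4.09), and 1399 CPM in MASH and 139 CPM in chow at 24 weeks (10.1, 3.88 to 37.2, on 4 chow UMIs). C4b (chromosome 17, 34728380 to 34743882), of the classical pathway, had 606 CPM in MASH and 290 CPM in chow at 12 weeks (2.09, 1.42 to 3.17), and 1160 CPM in MASH and 278 CPM in chow at 24 weeks (4.17, 2.08 to 9.80). The C4b ratio at 12 weeks was 1.42 among single-hashtag cells, 1.49 among cells with no UMI of the stellate genes, 1.90 with at least 1 Clec3b UMI and 1.72 in cells with mesothelial markers. C4b has a near-identical copy, C4a, so its counts are uncertain where reads could be split between them. At 12 weeks C1s1, a protease of the first component, stood at 1.53 times chow (1.20 to 1.97) and Serping1, the inhibitor of the first component, at 0.846 (0.746 to 0.961). The 24-week values of these genes were 2.64 (1.59 to 4.69; 1.96 as a mean over cells) and 1.74 (1.29 to 2.38) times chow, in the same order. C7, a part of the pore that complement builds in membranes, had 276 CPM in MASH and 608 CPM in chow at 12 weeks (0.453, 0.321 to 0.641), all of it in cells without mesothelial markers, where the ratio was 0.786 (0.557 to 1.11).

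Of the 9 complement genes listed, 8 could be compared at 12 weeks, with 3 higher, 1 lower and a median log2 ratio of 0.64, against −0.02 over all genes. The median was 0.45 in cells with mesothelial markers and 0.40 in those without. At 24 weeks 5 of 7 were higher and 0 lower, with a median of 1.57 against 0.20 over all genes. Cfd was at 0 UMIs in all 4 libraries.

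**Figure D3:**
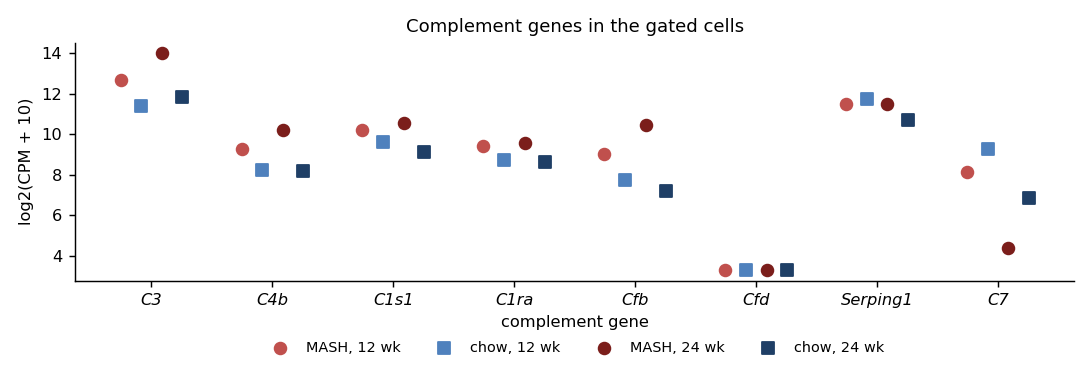
Level of 8 listed complement genes in the gated cells of each library, as log2(CPM + 10) of summed UMIs, with circles for MASH and squares for chow. C3, C4b and Cfb lie higher in MASH than in chow at both weeks and highest in 24-week MASH, Serping1 lies higher in MASH at 24 weeks only, and C7 lies lower in MASH.

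Saa3, an acute-phase serum amyloid A protein that mice make mainly outside hepatocytes, was found in MASH cells and in none of the 47 gated chow cells. Saa3 (ENSMUSG00000040026, protein-coding, minus strand of chromosome 7, 46711998 to 46715700) had 805 CPM in MASH and 0 CPM in chow at 12 weeks, and 15811 CPM in MASH and 0 CPM in chow at 24 weeks. It was seen in 13 of 65 MASH cells at 12 weeks and 21 of 25 at 24 weeks. Set against a floor of 3 UMIs over the chow cells, it was at least 28.7-fold higher at 12 weeks and at least 152-fold higher at 24 weeks. At 12 weeks the level was not above that of the library as a whole: all cells passing the filter had 825 CPM in MASH and 0.228 CPM in chow, and T cells had 397 CPM in MASH and 0.282 CPM in chow. In 24-week MASH all passing cells had 389 CPM and T cells 146 CPM, far below the 15811 CPM of the gated cells. The 24-week MASH cells ranged over 0, 2586 and 109520 CPM (lowest, median and highest). The highest cell, which was marked as a doublet, gave 45% of the UMIs, and the next had 52456 CPM. Without the cells called doublets, Saa3 in all gated cells of 24-week MASH was 12.5 times its level in 12-week MASH. Hashtags 4, 5 and 6 of 12-week MASH had 5428, 104.9 and 3072 CPM, so the 20 cells of hashtag 5 held little Saa3.

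The promoters of C3 and Saa3 are shown because these complement and acute-phase genes were past 2-fold in MASH at both weeks. They are the 250 bases upstream of the RefSeq start in GRCm38.p6, both on the minus strand, chr17:57228137-57228386 for C3 and chr7:46715677-46715926 for Saa3, written 5′ to 3′ with a C/EBP-type motif in capitals.
C3: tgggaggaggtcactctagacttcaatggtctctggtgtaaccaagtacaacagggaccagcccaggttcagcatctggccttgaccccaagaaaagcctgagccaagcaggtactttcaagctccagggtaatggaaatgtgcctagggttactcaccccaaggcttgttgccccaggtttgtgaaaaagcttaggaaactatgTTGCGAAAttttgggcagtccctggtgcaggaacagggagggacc
Saa3: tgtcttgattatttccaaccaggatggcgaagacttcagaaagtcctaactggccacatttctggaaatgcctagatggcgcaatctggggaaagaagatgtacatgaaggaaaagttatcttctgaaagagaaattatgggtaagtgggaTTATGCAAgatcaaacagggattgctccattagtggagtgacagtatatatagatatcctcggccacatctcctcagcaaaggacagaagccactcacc
Each window holds the C/EBP-type motif TTGCNNAA (reverse TTNNGCAA) once, from 45 to 38 bases before the start in C3 and from 99 to 92 bases before it in Saa3. Over all 32817 RefSeq promoters of this length, 9.57% hold it on either strand. Neither window holds the letters TTCNNNGAA (STAT-type, in 7.01% of promoters) or an NF-kB-type motif (1.41%) on either strand. A match describes letters and is not a measured site, and the C/EBP-type match overlaps none of the other motifs. The other higher complement genes Cfb and C4b are named without a sequence.

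Slpi, a secreted inhibitor of neutrophil elastase (ENSMUSG00000017002, chromosome 2, 164354070 to 164389095), stood on opposite sides of chow at the 2 times, a difference that was not tested. It had 2103 CPM in MASH and 8464 CPM in chow at 12 weeks (0.248, 0.224 to 0.276), and 11614 CPM in MASH and 1460 CPM in chow at 24 weeks (7.96, 5.86 to 11.1). Nearly all of it lay in cells with mesothelial markers, where the levels were 2928 CPM in MASH and 16874 CPM in chow at 12 weeks and 14428 CPM in MASH and 2384 CPM in chow at 24 weeks. It was seen in 22 of 65 MASH and 14 of 38 chow cells at 12 weeks and in 20 of 25 MASH and 4 of 9 chow cells at 24 weeks. A single cell gave 39% of the MASH and 37% of the chow UMIs at 12 weeks, and the ratio was 0.155 without the top MASH cell and 0.238 without the top cell of each library. By hashtag, Slpi had 9177, 598.2 and 3795 CPM for hashtags 4, 5 and 6 of 12-week MASH and 13340, 15980 and 1515 CPM for hashtags 1, 2 and 3 of 12-week chow, so the single-hashtag values of the diets overlapped.

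Among membrane proteins, Tmem176b and Tmem176a, a neighbouring pair of 4-pass proteins of immune and epithelial cells, were higher together. Tmem176b (chromosome 6, 48833818 to 48841496) had 1316 CPM in MASH and 561 CPM in chow at 12 weeks (2.35, 1.78 to 3.14; 1.56 in cells without mesothelial markers, below 2-fold), and 2969 CPM in MASH and 348 CPM in chow at 24 weeks (8.54, 4.61 to 17.9). Tmem176a (chromosome 6, 48840919 to 48847071), which overlaps it on the other strand, was 2.31 times chow (1.52 to 3.65; 1.98 among single-hashtag cells) at 12 weeks and, with 1769 CPM in MASH and 104 CPM in chow on 3 chow UMIs, also higher at 24 weeks. Where genes overlap, the split of reads between them is uncertain. Tmem176b was seen in 54 of 65 MASH and 18 of 38 chow cells at 12 weeks, and in 25 of 25 MASH and 7 of 9 chow cells at 24 weeks. T cells had 203 CPM of it in MASH and 161 CPM in chow at 12 weeks. The adhesion molecule Alcam had 236 CPM in MASH and 37.4 CPM in chow at 12 weeks (6.30, 2.35 to 23.8; 4.16 without the top MASH cell and 2.33 as a mean over cells), and 682 CPM in MASH and 34.8 CPM in chow at 24 weeks (19.6, 3.46 to 782, on 1 chow UMI). Prg4, the lubricating proteoglycan of serous and joint surfaces, had 123 CPM in MASH and 37.4 CPM in chow at 12 weeks (3.30, 1.18 to 12.8; 1.44 as a mean over cells, below 2-fold), and 671 CPM in MASH and 0 CPM in chow at 24 weeks, at least 6.44-fold higher. In both MASH libraries nearly all Alcam and Prg4 UMIs came from cells with mesothelial markers. Ucp2, a mitochondrial carrier, was higher at both weeks too (2.52, 1.06 to 7.28, and 2.09, 1.10 to 4.47, the second 1.83 when scaled to the median ratio), but stood below its level in T cells, which was 488 CPM in MASH and 472 CPM in chow at 12 weeks. Cxcl13, a chemokine for B cells, rested on single cells, which gave 98% of its 202 UMIs in 12-week MASH and 91% of its 303 UMIs in 24-week MASH.

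**Figure D4:**
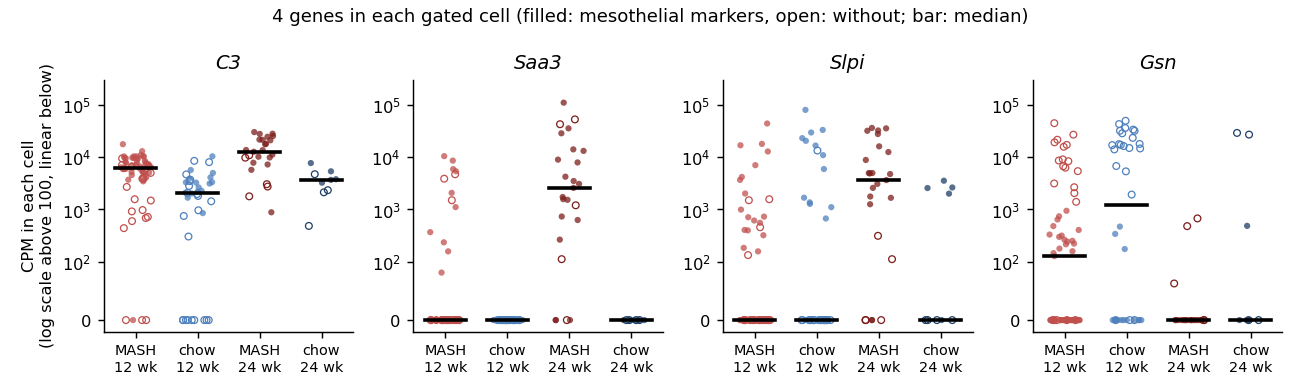
CPM of C3, Saa3, Slpi and Gsn in each gated cell of the 4 libraries, on a log scale above 100 CPM and a linear one below, with filled points for cells with mesothelial markers, open points for those without, and a bar at the median. The C3 medians are 6127 CPM in MASH and 2081 CPM in chow at 12 weeks, Saa3 is at 0 in every chow cell, and high Gsn values are open points.

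Genes of antigen presentation were split. Cd74, the chaperone of MHC class II, had 899 CPM in MASH and 421 CPM in chow at 12 weeks (2.14, 1.55 to 3.01). It was 3.57 times chow (2.18 to 6.23) in cells with mesothelial markers and 0.552 times chow (0.304 to 0.994) in the others, and over all gated cells 1.43 times as a mean over cells. T cells had 3372 CPM of Cd74 in MASH and 1942 CPM in chow at 12 weeks, above the gated cells. H2-Aa and H2-Ab1, which encode class II chains, stood at 4.46 (1.95 to 12.6) and 5.82 (2.38 to 18.4) times chow at 12 weeks. Their levels were 250 and 272 CPM in MASH and 56.1 and 46.8 CPM in chow. All were below those in T cells, which had 1036 and 808 CPM in MASH and 539 and 397 CPM in chow. The part of free RNA in these class II values was not tested. Class I genes are made by nearly all cells, and the H2-K1 ratio was 1.90 and the B2m ratio 1.56 at 12 weeks. Of the 17 genes of antigen presentation and interferon response, 10 could be compared at 12 weeks, with 3 higher, 0 lower and a median log2 ratio of 0.65. The 3 were Cd74, H2-Aa and H2-Ab1, whose levels in MASH lay below those of T cells.

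On the lower side stood genes of portal and other fibroblasts. Gsn, the actin-severing protein gelsolin (ENSMUSG00000026879, chromosome 2, 35256380 to 35307892), had 3162 CPM in MASH and 12309 CPM in chow at 12 weeks (0.257, 0.236 to 0.280), and 51.2 CPM in MASH and 7855 CPM in chow at 24 weeks (0.00652, 0.00294 to 0.0126). The gene belonged to cells without mesothelial markers, whose levels were 10354 CPM in MASH and 24069 CPM in chow at 12 weeks (0.430, 0.394 to 0.469), and 259 CPM in MASH and 20178 CPM in chow at 24 weeks. At 24 weeks these were 5 MASH and 4 chow cells. Nearly all Gsn UMIs of 24-week chow came from cells with 28972 and 26905 CPM, each marked as a doublet. Igfbp6, which binds insulin-like growth factors, had 2582 CPM in MASH and 6482 CPM in chow at 12 weeks (0.398, 0.358 to 0.443), with like ratios of 0.323 and 0.366 in cells with and without mesothelial markers. Rarres2, the secreted attractant chemerin, had 2049 CPM in MASH and 5069 CPM in chow at 12 weeks (0.404, 0.359 to 0.456), and 1729 CPM in MASH and 3789 CPM in chow at 24 weeks (0.456, 0.366 to 0.573). Cst3, the protease inhibitor cystatin C, stood at 0.371 (0.328 to 0.419) and 0.333 (0.264 to 0.424) times chow at 12 and 24 weeks, the second value with 67% of chow UMIs in 1 cell and at 0.526 as a mean over cells. In cells with mesothelial markers the 12-week Cst3 value was 0.557, and in those without them the 12-week Rarres2 value was 0.577. The fourth gene lower at both weeks, the hepatocyte fatty acid carrier Fabp1, had 97% of its 24-week chow UMIs in 1 cell.

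Of the 16 portal fibroblast genes outside the rule, 14 could be compared at 12 weeks. In all gated cells 0 were higher and 4 lower (Gsn, Pi16, Igfbp6 and Entpd2, the last at 0.608 as a mean over cells), with a median log2 ratio of −0.72. Among cells without mesothelial markers, of which there were 21 in MASH and 22 in chow, 0 were higher and 3 lower and the median was −0.50. Among cells with mesothelial markers 7 could be compared, with 1 higher, 1 lower and a median of −0.11. Pi16, which marks a fibroblast of vessel walls in mice, had 345 CPM in MASH and 1001 CPM in chow (0.344, 0.258 to 0.458), where 1 chow cell gave 65% of the UMIs, and 0.597 times chow (0.448 to 0.794) in cells without mesothelial markers. Mfap4, of the elastic microfibrils, was 0.799 times chow (0.564 to 1.14) over all gated cells and 1.38 times chow (0.979 to 1.98) in those cells. Cells with portal fibroblast markers made up 49.2% of the gated cells in MASH and 71.1% in chow, so values over all gated cells move with this share. Others named on the lower side by size lay mostly in cells without mesothelial markers: Mmp3, the protease stromelysin (0.0417, 0.0194 to 0.0802, with 67% of chow UMIs in 1 cell), Pcolce2, an enhancer of collagen processing (0.183, 0.109 to 0.300), the peptidase gene Dpep1 (0.194, 0.104 to 0.350), the methyltransferase gene Inmt (0.182, 0.120 to 0.271), the matrix adhesion gene Svep1 (0.213, 0.110 to 0.396), the Wnt modulator gene Sfrp2 (0.226, 0.125 to 0.398; 0.541 as a mean over cells) and Gdf10, of the TGF-beta family (0.239, 0.120 to 0.462). Within these cells their ratios ran from 0.0723 for Mmp3 to 0.414 for Gdf10, so each kept its direction there. Tppp3, a tubulin-binding protein of synovial and other fibroblasts, was 0.0684 times chow (0.0235 to 0.165). Spock2 and Phlda1 were 0.176 and 0.177 times chow.

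Among mesothelial genes over all gated cells at 12 weeks, 1 of 7 was higher, 2 were lower and 4 lay between. Msln, the surface protein mesothelin (chromosome 17, 25748613 to 25754378), had 192 CPM in MASH and 468 CPM in chow at 12 weeks (0.411, 0.274 to 0.617), and within cells with mesothelial markers 272 CPM in MASH and 953 CPM in chow (0.286, 0.190 to 0.429). Muc16, its binding mucin, stood at 0.476 (0.314 to 0.725) over all gated cells and at 0.673 with at least 1 Clec3b UMI. Wt1, the transcription factor of the mesothelial lineage, was 2.38 times chow (1.37 to 4.42; 1.89 as a mean over cells), and Upk3b was 0.971 times chow (0.777 to 1.22). The keratins Krt19, Krt7 and Krt8 were 0.294 (0.218 to 0.396), 0.476 (0.261 to 0.877; 0.521 with at least 1 Clec3b UMI) and 0.109 (0.0458 to 0.234) times chow, and the cells without mesothelial markers held 1 UMI of Krt19 in MASH and 2 in chow, and none of Krt7 or Krt8. Of the 7 mesothelial genes, all compared within cells with mesothelial markers at 12 weeks, 0 were higher and 3 lower, with a median log2 ratio of −0.98. Msln, Upk3b and 3 other genes of this list chose these cells, so only Wt1 and Muc16 are outside the split.

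Named higher by size at 12 weeks were also the adhesion molecule Cdh11, with 283 CPM in MASH and 18.7 CPM in chow (15.1, 4.05 to 127), and Enpp2, the enzyme autotaxin that makes lysophosphatidic acid, with 889 CPM in MASH and 140 CPM in chow (6.33, 3.77 to 11.5). Both lay mainly in cells with mesothelial markers, where Enpp2 had 1161 CPM in MASH and 191 CPM in chow. At 24 weeks both had too few chow UMIs for a comparison: Cdh11 had 171 CPM in MASH and 174 CPM in chow, and Enpp2 had 313 CPM in each diet. Angptl4, a lipase inhibitor, and Arid5b, a chromatin regulator, were 17.8 times (3.05 to 720) and 19.0 times chow (3.25 to 766), each on 1 chow UMI. Syne1, of the nuclear envelope, was 8.82 times chow (3.33 to 33.1), the immediate early gene Ier3 6.11 times (2.27 to 23.1), Lgals2 4.75 times and Anxa7 5.30 times.

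Matrix genes as groups showed small shifts at 12 weeks. Of 15 collagens outside the rule, 9 could be compared, with 2 higher (Col6a3, and Col5a2, which stood at 1.90 under the stricter cell filter), 1 lower (Col14a1) and a median log2 ratio of −0.39. In cells without mesothelial markers 2 of 8 were higher and 0 lower, and the median was 0.29, on the other side of 0. Col6a3, a chain of the beaded microfibril collagen, had 196 CPM in MASH and 37.4 CPM in chow (5.23, 1.93 to 19.9), and 580 CPM in MASH and 55.1 CPM in chow in cells without mesothelial markers (10.5, 3.39 to 52.9). Col1a2, of the main fibrillar collagen, was 0.749 times chow (0.627 to 0.897) in all gated cells and 1.04 times (0.840 to 1.29) in the cells without mesothelial markers. Of the 19 matrix glycoproteins and proteoglycans 14 could be compared, with 0 higher and 2 lower, the microfibril protein Fbn1 (0.259) and the collagen-binding Lum (0.399, and 0.654 in cells without mesothelial markers), and a median of −0.23. Of 14 genes of collagen processing 10 could be compared, with 2 higher, Lox, the crosslinking enzyme (2.46, 1.03 to 7.11), and Plod2, a lysyl hydroxylase (2.13, 0.993 to 5.24; 1.60 under the stricter cell filter and 1.97 with at least 1 Clec3b UMI), 0 lower and a median of −0.25. Markers of myofibroblasts were scarce: of 13 genes only 2 had enough UMIs to compare, Cthrc1 had none in any library and Postn had 2 UMIs in MASH and 10 in chow at 12 weeks.

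Of 27 growth factor signals 16 could be compared at 12 weeks, with 4 higher, 0 lower and a median of −0.03. The higher ones were the matricellular genes Ccn1 (4.03, 1.62 to 12.9) and Ccn2 (3.64, 1.46 to 11.7), the ligand gene Bmp4 (2.64, 1.03 to 8.64) and Rspo3, which strengthens Wnt signals (4.49, 2.08 to 11.5). A single cell gave 54% of the MASH Rspo3 UMIs, and the ratio was 2.12 without that cell. For Ccn2 1 cell gave 64%, and that ratio was 1.36 without it.

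According to its description the series is about uPAR, the urokinase receptor, whose gene is Plaur. Plaur had 3 UMIs in MASH and 7 in chow at 12 weeks and 2 in MASH and 0 in chow at 24 weeks over all gated cells, and its ligand Plau 7 and 3 at 12 weeks and 2 and 1 at 24 weeks, too few to compare. The clearance receptor Lrp1 had 540 CPM in MASH and 589 CPM in chow at 12 weeks (0.917, 0.679 to 1.25), and tissue plasminogen activator, Plat, 163 CPM in MASH and 131 CPM in chow (1.25, 0.672 to 2.46).

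Markers of other cells were low but not equal. The 10 hepatocyte markers summed to 845.0 CPM in MASH and 1225 CPM in chow at 12 weeks, with 2 and 1 genes at 0, and to 2480 CPM in MASH and 7230 CPM in chow at 24 weeks, with 3 and 1 at 0. The 8 endothelial markers summed to 551.2 CPM in MASH and 215.1 CPM in chow at 12 weeks, with 0 and 1 genes at 0, and to 51.19 CPM in MASH and 417.1 CPM in chow at 24 weeks, with 5 and 2 at 0. The 9 macrophage and monocyte markers summed to 159.6 CPM in MASH and 74.82 CPM in chow at 12 weeks, with 2 and 6 genes at 0, and to 62.56 CPM in MASH and 451.9 CPM in chow at 24 weeks, with 4 at 0 in each. The 4 neutrophil markers, the 6 markers of B and plasma cells and the 7 of T and NK cells each summed to at most 313 CPM in every library. The 7 cholangiocyte markers, 4 of which are keratins that mesothelial cells make too, summed to 468 CPM in MASH and 1702 CPM in chow at 12 weeks, and to 2269 CPM in MASH and 869 CPM in chow at 24 weeks. Haemoglobin genes summed to 8802 CPM in 12-week MASH and 74.82 CPM in 12-week chow, and 74% of the 1524 MASH UMIs of Hbb-bs were in 1 cell. The haem synthesis gene Alas2, among the higher genes by size, had 42 UMIs in 3 MASH cells, and the part of other cells in these results was not tested.

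At 24 weeks, beside the genes already given, the higher side in MASH held Clu, the chaperone clusterin, with 3265 CPM in MASH and 382 CPM in chow (8.54, 4.74 to 17.2), the crosslinking enzyme gene Tgm2 with 546 CPM in MASH and 69.5 CPM in chow (7.85, 2.12 to 65.8), the protease inhibitor gene Spint2 with 432 CPM in MASH and 34.8 CPM in chow (12.4, 2.17 to 498), and Fn1, fibronectin, with 813 CPM in MASH and 209 CPM in chow (3.90, 1.75 to 10.8), where 57% of the MASH UMIs came from 1 cell. H2-Aa and H2-Ab1 stood at 0.260 (0.184 to 0.370) and 0.460 (0.313 to 0.689) times chow, with 86% and 97% of the chow UMIs in 1 cell, and H2-Ab1 at 0.810 as a mean over cells. The transcript AY036118 had 4294 CPM in MASH and 14842 CPM in chow, and turned to 10.6 times chow without the cells called doublets. The other genes lower by size were Cyb5a, Scp2, Anxa2, Nbl1, Gstp1, Psap, S100a10 and Gpx1. All these values depend on the 9 chow cells, of which 8 were marked as doublets.

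The MASH libraries at 24 and 12 weeks, with 25 and 65 gated cells, could be compared for 2832 genes, of which 150 were higher (5.3%) and 365 lower (12.9%) at 24 weeks, with a median log2 ratio of −0.11. The portal fibroblast list stood far below that, with 11 of 14 genes lower, 0 higher and a median of −2.10. Cells with fibroblast markers alone numbered 3 of 25 at 24 weeks and 15 of 65 at 12 weeks. Yet within the cells with mesothelial markers, 20 at 24 weeks and 44 at 12 weeks, 6 of 8 genes were also lower and 0 higher, with a median of −2.75 against −0.08 over the 2251 genes compared there, of which 293 were lower (13%) and 139 higher (6.18%). In those cells Fbln1, a fibulin of the basement membrane, had 184 CPM at 24 weeks and 1048 CPM at 12 weeks (0.176, 0.112 to 0.265), Cd34, a surface sialomucin of fibroblasts and vessels, 135 CPM and 565 CPM (0.238, 0.138 to 0.390), and Mfap5, of the microfibrils, 0 CPM and 437 CPM, at most 0.0487 times the 12-week level with the later count set to 3 UMIs. The transcription factor Osr1, an early mesenchymal regulator, had 7.09 CPM at 24 weeks and 652 CPM at 12 weeks in them (0.0109, 0.000273 to 0.0616), and Barx1 7.09 CPM and 123 CPM. Enpp2 had 28.3 CPM at 24 weeks and 1161 CPM at 12 weeks there (0.0244, 0.00660 to 0.0634).

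Higher at 24 weeks in the same cells were C3 (18325 CPM and 7976 CPM, 2.30, 2.16 to 2.45), Cfb (1630 CPM and 683 CPM, 2.39, 1.92 to 2.98), Slpi (14428 CPM and 2928 CPM, 4.93, 4.49 to 5.42) and Saa3 (13528 CPM and 899 CPM, 15.1, 12.9 to 17.7; 5.65 without the top 24-week cell and 10.1 without the top cell of each library). Timp1, the inhibitor of matrix proteases, had 418 CPM at 24 weeks and 51.4 CPM at 12 weeks (8.14, 4.13 to 17.9), and 1 cell gave 39% of the later UMIs. The keratin Krt18 had 319 CPM and 36.0 CPM (8.87, 3.97 to 23.3), Wfdc2, a secreted protein related to Slpi, 184 CPM and 25.7 CPM (7.17, 2.71 to 23.9), the intermediate filament gene Prph 227 CPM and 10.3 CPM (22.1, 5.63 to 190), and Cd74 4840 CPM and 1156 CPM (4.19, 3.60 to 4.89). T cells had 5982 CPM of Cd74 in 24-week MASH and 3372 CPM in 12-week MASH, above both levels. The clock gene Nr1d1 had 163 CPM at 24 weeks and 15.4 CPM at 12 weeks (10.6, 3.20 to 55.0), and the hour at which livers were taken is not given in the labels. Cxcl5, Calca and Spp1 were high at 24 weeks through 1 cell each, which gave 94%, 83% and 98% of their UMIs. The other genes higher by size over all gated cells were Myl7, Mustn1, Kcnab1, Gm20186 and Prr15l, and the lower ones Htra3, Ly6a, Ccn2, Rspo3, C7 and Pi16.

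Several matrix and signalling lists had more lower than higher genes at 24 than at 12 weeks of MASH. So did all 2832 compared genes, with 12.9% lower, 5.3% higher and a median log2 ratio of −0.11. Of the matrix glycoproteins and proteoglycans 7 of 14 were lower and 0 higher (median log2 ratio −0.91), among them Ogn, the small proteoglycan osteoglycin (0.0980), and Nid1, of the basement membrane (0.0596). Of the collagens 3 of 11 were lower and 0 higher (−0.71), and of the growth factor signals 7 of 17 were lower and 0 higher (−0.96). Within cells with mesothelial markers the medians of these lists were −0.79, −0.23 and −0.60, less far below 0 in each, over fewer genes. There 5 of 11, 3 of 7 and 6 of 14 genes were lower, in the same order, and 0 higher. Of the genes of collagen processing 5 of 11 were lower and 1 higher, and within cells with mesothelial markers 2 of 7 each way. The matrix proteases and inhibitors were split, with 2 of 8 lower and 2 higher. The stress list, which holds heat shock and immediate early genes raised by tissue handling, stood at 0.58, with 3 of 15 higher and 1 lower.

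**Figure D5:**
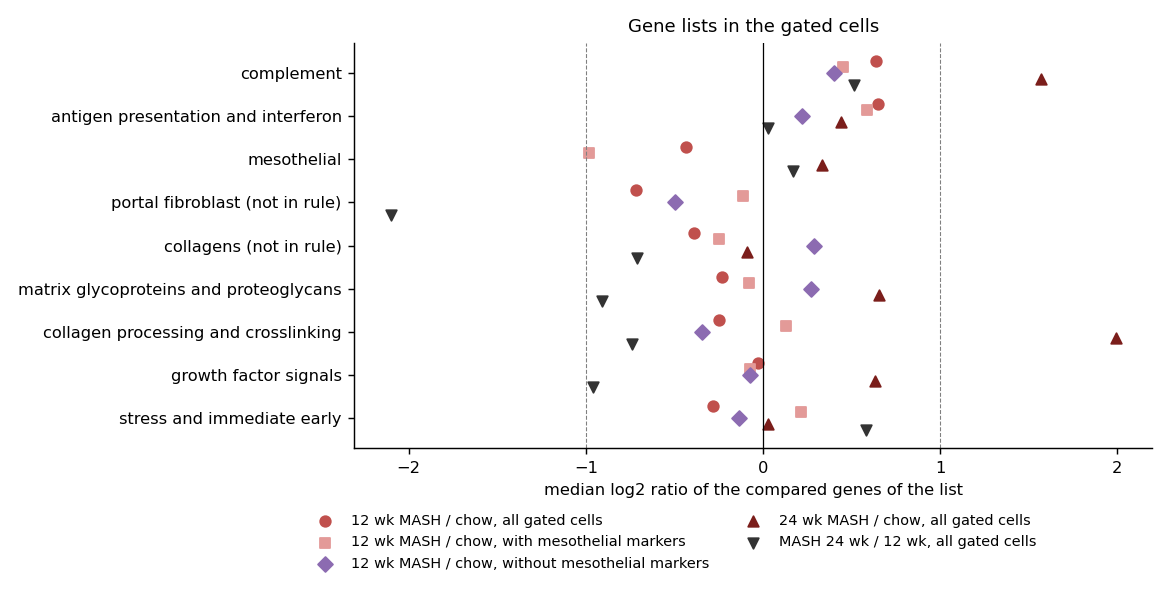
Median log2 ratio of the compared genes of 9 lists in the gated cells, for MASH over chow at 12 weeks (all cells, and cells with and without mesothelial markers), MASH over chow at 24 weeks, and 24-week over 12-week MASH; lists with fewer than 3 compared genes have no point, and dashed lines mark 2-fold. Complement lies right of 0 in every comparison, from 0.40 to 1.57, and the portal fibroblast list lies left of 0, at −2.10 for 24-week over 12-week MASH.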

How the data were processed

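The deposited files held raw counts: whole-number UMI counts per gene and cell, and counts of antibody hashtags, as written by Cell Ranger per the file headers (version 5.0.1 for 3 libraries and 4 for 12-week MASH). The mm10 and GRCh38 builds are listed without a role in the submitters' processing notes, and the way cells were called was not given in the sources used here. The 12-week MASH matrix had 737280 columns, which its 19014 listed barcodes did not match, and its 19091 columns with at least 500 UMIs were used.

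Cells were kept with at least 500 gene UMIs, at least 300 genes and at most 15% mitochondrial UMIs. Doublets were called with Scrublet in scanpy 1.11.5 (12.1% and 11.9% of cells in MASH and chow at 12 weeks, 10.6% and 23.9% at 24 weeks) and kept in the values unless stated. UMIs of the gated cells were summed per library and scaled to CPM. A gene was compared where both libraries had at least 10 expected UMIs in the smaller one, called past 2-fold, and a count of 0 was bounded at 3 counts. Intervals are exact conditional binomial ones at 95% and treat UMIs as independent, so they do not cover differences between cells or mice. The comparison was checked on simulated counts.

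There were 3 comparisons with 1 library on each side, so no p-value was computed. Genes were named where they marked the gate, stood in a fixed list, or were among the 12 highest or lowest compared genes of a comparison, leaving out mitochondrial, ribosomal, immunoglobulin, T cell receptor and haemoglobin genes and genes below the level of all passing cells, with those past 2-fold in one direction at both weeks first. The members, lists and comparisons were chosen with earlier results of these data known. The stricter cell filter asked for 1000 UMIs, 500 genes and at most 10% mitochondrial UMIs, and a mean over cells weighs each gated cell equally. The removal of single cells with most UMIs of a gene, the split by mesothelial markers, the exclusion of cells above 1% haemoglobin UMIs and a total without Gm42418 and AY036118 were added after seeing the data. Gene positions are from GENCODE M21 and promoters from RefSeq GRCm38.p6. Intervals came from scipy 1.17.1 and tables from pandas 2.3.3 and numpy 2.4.6, under Python 3.11.15, and plots were drawn with matplotlib 3.10.9. Values of 2 genes of the lists are not reported here, though counts and medians over a list include them.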

Additional observations from a re-analysis of the deposited data

Results flagged for a closer look

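In the gated cells 3 genes stood past 2-fold on opposite sides of chow at the 2 weeks, and the difference between weeks was not tested for any of them. Slpi, the elastase inhibitor, had 2103 CPM in MASH and 8464 CPM in chow at 12 weeks, a ratio of 0.248, and 11614 CPM in MASH and 1460 CPM in chow at 24 weeks, a ratio of 7.96. Over the alternatives in which it could be compared, the Slpi ratio stayed between 0.110 and 0.336 at 12 weeks and between 3.80 and 11.2 at 24 weeks.

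The MHC class II gene H2-Ab1 had 272 CPM in MASH and 46.8 CPM in chow at 12 weeks, a ratio of 5.82, and 592 CPM in MASH and 1286 CPM in chow at 24 weeks, a ratio of 0.460. Its partner H2-Aa had 250 CPM in MASH and 56.1 CPM in chow at 12 weeks, a ratio of 4.46, and 506 CPM in MASH and 1946 CPM in chow at 24 weeks, a ratio of 0.260. A single cell gave 97% of the H2-Ab1 and 86% of the H2-Aa UMIs in 24-week chow. T cells had 808 CPM of H2-Ab1 and 1036 CPM of H2-Aa in MASH, and 397 and 539 CPM in chow, at 12 weeks.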

How the results depend on the processing

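Of 218 gene ratios recomputed 2667 times under alternatives, 2403 values stayed within the counting interval, 257 moved outside it on the same side of 1, and 7 turned. Another 398 had too few UMIs to be compared. The turned values were Cd74 at 0.552 for MASH over chow at 12 weeks in cells without mesothelial markers, the transcript AY036118 at 10.6 at 24 weeks without doublets, and, for 24-week over 12-week MASH, Cxcl13 at 0.0655 with at least 1 Clec3b UMI and 0.0273 in cells with mesothelial markers, H2-Aa at 0.908 and H2-Ab1 at 0.639 without any stellate UMI, and Lum at 1.28 among single-hashtag cells. The C3 ratio lay between 1.39 and 2.73 at 12 weeks and between 2.98 and 32.9 at 24 weeks. Where it could be compared, the Gsn ratio lay between 0.0633 and 0.430 at 12 weeks and between 0.00545 and 0.00779 at 24 weeks. It could not be compared at 24 weeks without doublets, since the unmarked chow cell held 0 CPM of Gsn. The lower bound for Saa3 lay between 10.5 and 29.1 at 12 weeks and between 6.35 and 153 at 24 weeks.

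The share of gated cells depended on the rule. Without any stellate UMI it was 0.163% in MASH and 0.0922% in chow at 12 weeks, and 0.0351% in MASH and 0.0110% in chow at 24 weeks. In cells thinned to 1000 UMIs it was 1.54% in MASH and 0.419% in chow at 12 weeks, and 0.285% in MASH and 0.106% in chow at 24 weeks. Among single-hashtag cells it was 0.254% in 12-week MASH, 0.0630% in 12-week chow and 0.0114% in 24-week chow. At 12 weeks no hashtag was called in 28 of the 65 MASH and 26 of the 38 chow gated cells. Among all cells passing the filter this held for 3.54% in MASH and 10.7% in chow. With at least 1 Clec3b UMI 24-week MASH had 0.0351% and 24-week chow 0.0220%, on 7 and 6 cells. Without doublets 24-week chow had 0.00481%, which is 1 cell. MASH stood above chow at both weeks under each alternative, though on few cells of each diet at 24 weeks with at least 1 Clec3b UMI.

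Counts of genes past 2-fold changed with the rule too, as did the number of genes compared. At 12 weeks 44 were higher and 38 lower in MASH with no stellate UMI, 64 and 29 among single-hashtag cells, 1085 and 880 with no limit on low counts, 62 and 41 in cells with mesothelial markers, and 69 were higher in cells without them. At 24 weeks 35 were higher and 5 lower with no stellate UMI, 12 and 0 without doublets out of 14 compared, 474 and 824 with no limit on low counts, and 5 were lower among single-hashtag cells. For 24-week over 12-week MASH, 54 were higher and 118 lower with at least 1 Clec3b UMI, 41 and 61 with no stellate UMI, and 889 and 1682 with no limit on low counts. The causes of the other changes were not tested. No paired analysis was possible because each group has 1 library, and for the same reason no replicate could be left out. The 24-week chow library, with 9 gated cells and 28770 UMIs, limits every comparison with it.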
